A study of Mus musculus with 70 samples.

Results

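Cholesterol and fatty acids are made from the same acetyl-CoA, and 33 mouse genes of these routes were followed here by gene symbol across the RNA-seq of the pituitary. The list holds *Acat2*, the cytosolic thiolase at the entry to sterol synthesis, 6 genes of the mevalonate pathway, 9 genes of the squalene and sterol steps, the sterol carrier gene *Stard4*, 5 genes that control the SREBP factors, 4 genes that supply acetyl-CoA and malonyl-CoA, the fatty acid synthase gene *Fasn* and 6 desaturases and elongases. Values were found for 32 of them among the 22835 genes of the table, each read from its transcript with the highest mean CPM (reads scaled to the same total in each library, not divided by transcript length, so that levels are compared within a gene and not between genes). *Hmgcs1* was not analysed here. Of the 32 genes, 31 passed the limit for testing, CPM above 1 in all 18 libraries, as did 13145 genes in all. *Idi1*, an isomerase of the mevalonate pathway, lay at 0.399 to 1.57 CPM and was not tested.

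The RNA came from whole pituitaries of adult male C57BL/6J wild-type mice and *Thrb*-KO mice, which lack the thyroid hormone receptor TRβ by design, aged 2 to 4 months. All of these mice drank methimazole (MMI, 0.05%) and potassium perchlorate (1%), which block thyroid hormone synthesis, for 4 to 5 weeks, and those called hyperthyroid also received T3 (0.5 µg/ml), the active hormone, in the last 1 week, so that no RNA library came from an untreated mouse. Each library was a pool of 3 pituitaries, with 4 hypothyroid and 4 hyperthyroid libraries of wild type and 5 of each of *Thrb*-KO. TRβ binding was read from ChAP-seq (chromatin affinity purification) of untreated *Thrb* HAB/HAB;*Rosa26* BirA/BirA mice, whose tagged receptor is biotinylated by the ligase BirA, against *Rosa26* BirA/BirA mice, in pituitary and cerebral cortex. Open chromatin was read from ATAC-seq of nuclei marked by a *Rosa26* Sun1-GFP allele under a Thrb2-Cre driver. It thus covers the pituitary cells in which this driver has acted, at sampling or before, and not the whole gland. The ATAC-seq mice were made hypothyroid or hyperthyroid with the same doses and weeks as the RNA mice. Mice of the ChAP-seq and ATAC-seq were also males aged 2 to 4 months.

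In the cell, SREBP transcription factors switch on most genes of both routes. SREBP2, encoded by *Srebf2*, acts mainly on sterol genes and SREBP1, encoded by *Srebf1*, mainly on fatty acid genes. Both are held in the endoplasmic reticulum with SCAP by INSIG proteins while sterols are plentiful. Thyroid hormone is known to act on both routes, best of all in the liver, through receptors that bind DNA at pairs of the motif AGGTCA, often as a direct repeat with a 4 base spacer.

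Recovered totals were 21453548 to 55273749 reads per library (median 34673225), at which 1 read is worth 0.0181 to 0.0466 CPM. Replicates 1 and 2 of every group (8 libraries) had *Lars2* at 2571 to 3420 CPM and replicates 3 to 5 (10 libraries) at 53.2 to 95.1 CPM, so changes are also given within each of these library sets. Replicate 3 of hyperthyroid wild type stood apart from its group, with a TMM scaling factor of 0.832 where the other 17 libraries had 0.967 to 1.05. *Thrb* itself gave no check of the labels. Hypothyroid and hyperthyroid wild type had 257 ± 27.3 and 104 ± 22.8 CPM of it (SD, n = 4 each), and the libraries labelled *Thrb*-KO had 271 ± 20.1 and 260.2 ± 32.0 CPM (SD, n = 5 each). The whole glands carried the hormone genes of the pituitary, with 9 endocrine markers summing to 69711 to 98348 CPM in hypothyroid and 107580 to 224360 CPM in hyperthyroid wild type, and to 77026 to 93605 CPM and 109340 to 136630 CPM in *Thrb*-KO, and with 2 of them called higher and 2 lower with T3 in wild type. With T3, *Tshb* went from 2902 to 6462 CPM down to 40.5 to 422 CPM in wild type and from 3212 to 4832 CPM down to 85.0 to 169 CPM in *Thrb*-KO. In such whole-gland RNA fewer cells of a type and less RNA per cell cannot be told apart. Of the 6 adipocyte markers, *Adipoq*, *Plin1*, *Lep*, *Cidec* and *Cfd* lay at 0 to 0.0689 CPM and *Fabp4* at 1.005 to 4.02 CPM. Of the hepatocyte genes, *Alb* lay at 0 to 0.0363 CPM and *Apoa1* at 0.11 to 1.22 CPM.

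With T3 in wild-type mice 4 of the 31 tested genes were called in either direction, where 9.46% of all genes tested were. *Scd1*, which makes monounsaturated fatty acids, *Elovl5*, an elongase of polyunsaturated fatty acids, and *Acacb*, which makes malonyl-CoA at mitochondria, rose, and *Elovl6*, an elongase of long saturated fatty acids, fell. With limma, at an adjusted p under 0.05 over all genes tested and a change of at least 1.5-fold, 3 of the 31 genes were called higher and 1 lower, where 3.87% and 5.59% of all genes tested were. By the adjusted p alone *Dhcr7* and *Srebf2* joined them, to give 5 higher and 1 lower, against 6.89% and 12.4% of all genes. The wild-type libraries did not overlap for *Scd1*, *Elovl5* and *Dhcr7* (3 higher, 5.66% of all genes) and for *Elovl6* (1 lower, 11.7%). The median difference of the 31 genes was -0.02 on the log2 scale and that of all genes -0.04. None of the 4 called genes belongs to the sterol route, but counts this small do not tell the routes apart. Over all genes the calls in this contrast were 509 higher and 735 lower (40.9% higher), and with TMM scaling 674 and 539 (55.6% higher). TMM scaling put 21 of the 31 genes above 0 in place of 14, while the share of all genes above 0 went from 42.7% to 59.4%. It added *Dhcr7* and *Srebf2* to the 1.5-fold calls. In *Thrb*-KO mice none of the 31 genes was called higher or lower, where 0.411% and 0.601% of all genes were, and none passed the adjusted p alone, where 0.7% were higher and 1.09% lower. The libraries of *Scd1* and *Fads1* did not overlap there (2 higher and 0 lower, where 2.05% and 3.53% of all genes were). With limma 4 genes had an unadjusted p under 0.05, and edgeR and DESeq2 on the recovered reads also called none at 1.5-fold, while in replicates 1 and 2 alone 1 was called. The plot of T3 responses shows all 31 genes in both genotypes.

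**Figure D1:**
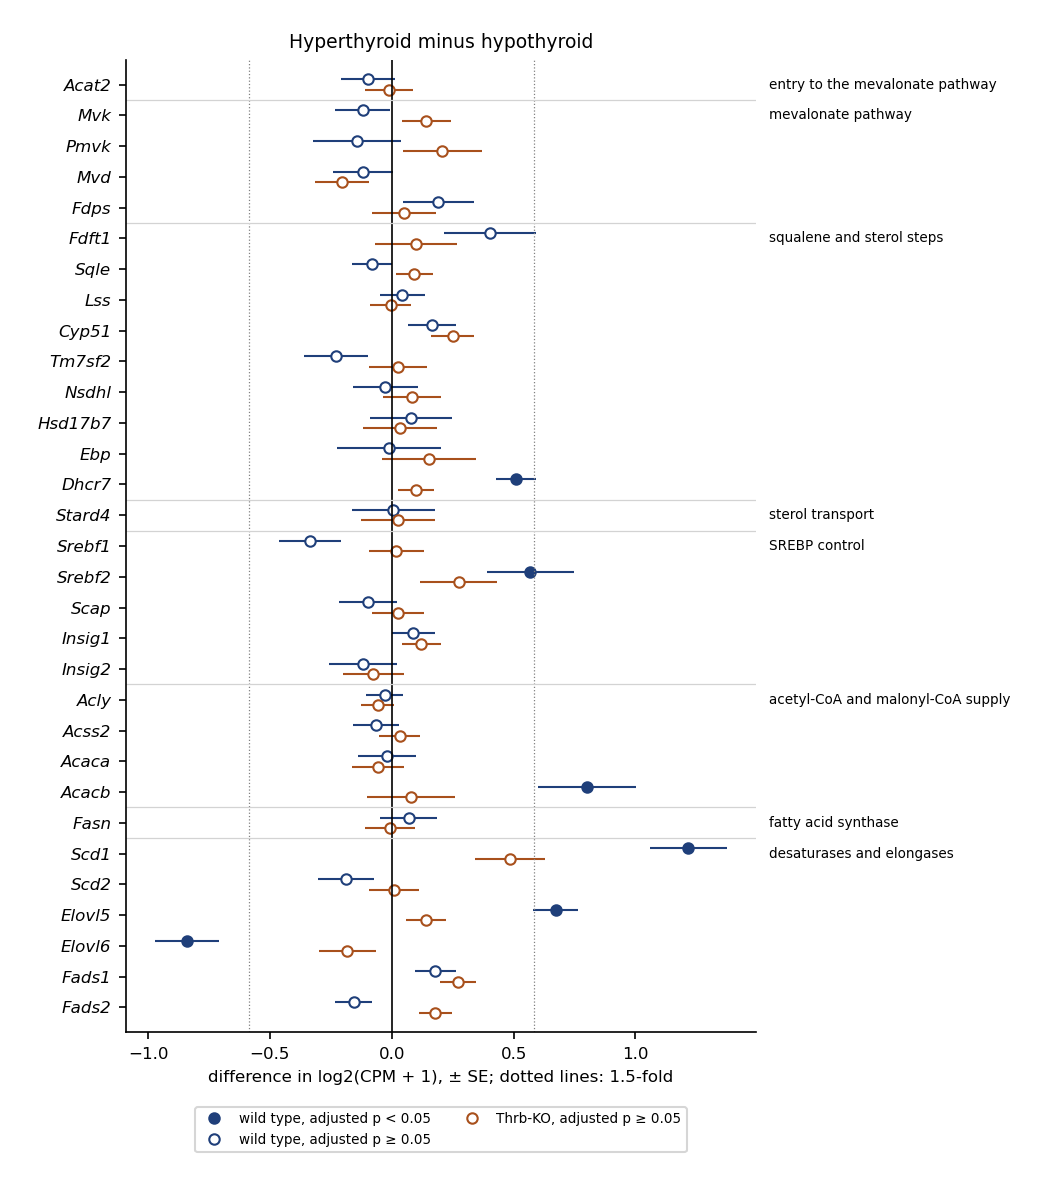
Difference in log2(CPM + 1) between hyperthyroid and hypothyroid pituitaries (x axis, ± SE) for the 31 tested genes (y axis, grouped by role), in wild type (blue, n = 4 and 4) and *Thrb*-KO (brown, n = 5 and 5). Filled points have an adjusted p under 0.05 and dotted lines mark 1.5-fold. Filled points are seen in wild type only, for *Dhcr7*, *Srebf2*, *Acacb*, *Scd1*, *Elovl5* and *Elovl6*, and the other 25 genes lie between -0.34 (*Srebf1*) and 0.40 (*Fdft1*) in wild type.

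The mevalonate pathway turns acetyl-CoA units into isoprenoids. *Acat2* and the 4 tested genes of this pathway, *Mvk*, *Pmvk*, *Mvd* and *Fdps*, did not pass the adjusted p in any of the 5 contrasts. Their T3 differences in wild type had a pathway median of -0.12 on the log2 scale, with 1 of the 4 genes above 0. *Pmvk*, a kinase of the pathway, ranged from 18.2 to 27.3 CPM (median 22.0) in hypothyroid and from 15.1 to 26.2 CPM (median 20.2) in hyperthyroid wild type, and from 16.9 to 22.8 CPM (median 18.9) and 18.1 to 27.5 CPM (median 22.2) in *Thrb*-KO. *Mvd*, the decarboxylase, ranged from 3.26 to 4.42 CPM (median 4.07) and from 3.16 to 3.93 CPM (median 3.56) in wild type, and from 3.75 to 4.73 CPM (median 4.20) and 2.93 to 4.53 CPM (median 3.06) in *Thrb*-KO. The 4 groups overlapped for both genes. For *Acat2*, 41.4% of the 50-base stretches of its transcript are shared with its near copy *Acat3*, so its CPM of 3.41 to 5.26 is uncertain.

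Of the 9 genes of the squalene and sterol steps, *Dhcr7*, the reductase that makes cholesterol from its last precursor, was the one past the adjusted p with T3. In hypothyroid wild type it lay at 21.4, 19.4, 20.5 and 19.4 CPM and in hyperthyroid wild type at 32.8, 29.0, 27.0 and 28.1 CPM. Hypothyroid *Thrb*-KO lay at 27.5, 28.7, 29.9, 32.6 and 30.3 CPM and in hyperthyroid *Thrb*-KO at 33.9, 28.8, 31.3, 31.3 and 34.9 CPM. The hypothyroid wild-type group was thus the low one and overlapped none of the other 3. Its T3 difference in wild type was 0.51 ± 0.08 (log2, SE, adjusted p = 0.000155), under the 1.5-fold limit, and 0.58 and 0.44 within the library sets. In *Thrb*-KO it was 0.10 (95% confidence interval -0.06 to 0.26, adjusted p = 1). The difference between these responses was 0.41 ± 0.11 (adjusted p = 0.0341), and hypothyroid *Thrb*-KO exceeded hypothyroid wild type by 0.54 ± 0.08 (adjusted p = 0.00018). Of the 18 fits that each left out 1 library, 7 kept that difference between responses under an adjusted p of 0.05. It missed, at 0.0540 to 0.0795, without hypothyroid wild-type replicate 2, 3 or 4, hyperthyroid wild-type replicate 1 or 2, hypothyroid *Thrb*-KO replicate 3, 4 or 5, or hyperthyroid *Thrb*-KO replicate 2, 3 or 4.

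The mouse build mm9 places *Dhcr7* on chromosome 7 (151009050 to 151034315, plus strand). A pituitary TRβ-HAB peak at 151008801 to 151009050 reached its first base, with 13 reads of HAB;BirA and 2 of the control. ChAP-seq values are sums of merged libraries, with no error between replicates. The cortex list had no peak within 20 kb of it.

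*Fdft1*, squalene synthase, lay at 25.9, 25.3, 35.4 and 34.5 CPM in hypothyroid and 33.5, 29.7, 57.5 and 44.0 CPM in hyperthyroid wild type. Values in replicates 3 and 4 were higher than in replicates 1 and 2 under both treatments, and the groups overlapped. The T3 difference was 0.40 ± 0.19 (adjusted p = 0.168), and with the replicate number as a block its adjusted p was 0.00182. Of its exon bases 26.9% lie over *Ctsb* on the other strand, and the counting is not stated to use strand. In *Thrb*-KO *Fdft1* ranged from 29.1 to 38.2 CPM (median 35.0) and from 28.9 to 44.6 CPM (median 39.8). *Sqle*, squalene epoxidase and a rate-limiting enzyme of the sterol route, did not pass with T3 (-0.08 in wild type, 0.09 in *Thrb*-KO). *Tm7sf2*, a sterol reductase, ranged from 4.75 to 6.51 CPM (median 6.23) and from 4.07 to 6.49 CPM (median 4.62) in wild type, and from 5.47 to 6.48 CPM (median 6.41) and 4.97 to 7.50 CPM (median 6.37) in *Thrb*-KO, with overlap of all groups. Its transcript shares 19.2% of its 50-base stretches with *1110014N23Rik*. *Lss*, *Cyp51*, *Nsdhl*, *Hsd17b7* and *Ebp*, which close the sterol rings and trim them, had T3 differences from -0.03 to 0.16 in wild type, none past the adjusted p. *Stard4*, which carries cholesterol between membranes, ranged from 10.1 to 15.0 CPM (median 13.0) and from 10.7 to 14.7 CPM (median 12.9) in wild type, and its T3 difference was 0.01 (95% confidence interval -0.36 to 0.37). In *Thrb*-KO it ranged from 13.1 to 19.0 CPM (median 16.2) and from 12.7 to 20.4 CPM (median 16.9).

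Among the genes of SREBP control, *Srebf2* passed the adjusted p with T3 in wild type and *Srebf1* did not. *Srebf2* lay at 113, 108, 78.0 and 76.2 CPM in hypothyroid and 181, 166, 94.3 and 126 CPM in hyperthyroid wild type. Each hyperthyroid library was above the hypothyroid library of the same replicate number, and the groups overlapped through replicate 3. The difference was 0.57 ± 0.18 (adjusted p = 0.0296), under the 1.5-fold limit, and 0.64 and 0.50 within the library sets. Without hypothyroid wild-type replicate 3 or 4, or hyperthyroid wild-type replicate 1 or 2, it no longer passed, with an adjusted p up to 0.107. The *Thrb*-KO libraries lay at 149, 147, 137, 122 and 109 CPM and at 175, 180.5, 151, 142 and 153 CPM, with a T3 difference of 0.27 ± 0.16 (adjusted p = 0.83). The responses differed by 0.29 (95% confidence interval -0.22 to 0.81, adjusted p = 0.729). Hypothyroid *Thrb*-KO exceeded hypothyroid wild type by 0.51 ± 0.17 (adjusted p = 0.084), and with the replicate block its adjusted p was 0.00235.

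In mm9, *Srebf2* is on chromosome 15 (81977696 to 82035806, plus strand). A pituitary TRβ-HAB peak at 81965701 to 81966150, with 42 reads of HAB;BirA and 8 of the control, lay 11546 bp upstream of the gene, with the start of *Ccdc134* nearer, at 7573 bp. Inside it, at 81965835 to 81966038, sat a T3-regulated ATAC peak, the single place among these genes where such a peak, TRβ binding and a direct repeat with a 4 base spacer met. The central 300 bases of the TRβ-HAB peak are shown for that repeat, with both AGGTCA-like motifs of the repeat in capitals (mm9 chr15:81965776-81966075, plus strand, 5′ to 3′).
Srebf2: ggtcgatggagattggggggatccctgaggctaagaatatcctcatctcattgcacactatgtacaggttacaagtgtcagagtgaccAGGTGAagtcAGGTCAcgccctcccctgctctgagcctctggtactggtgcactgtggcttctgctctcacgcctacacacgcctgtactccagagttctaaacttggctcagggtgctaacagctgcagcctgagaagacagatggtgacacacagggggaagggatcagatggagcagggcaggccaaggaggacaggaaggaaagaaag
The repeat AGGTGAagtcAGGTCA, from 81965864 to 81965879, matches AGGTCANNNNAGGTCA at 11 of the 12 bases compared. The cortex list had no peak there and held others inside the gene, in introns, at 81977951 to 81978700 with 19 reads against 4 and at 82017351 to 82017700 with 10 against 0. The ATAC list gives no direction, so it does not say whether this site opened or closed with T3.

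*Srebf1* lay at 129.6, 101, 99.5 and 87.0 CPM in hypothyroid and 89.2, 81.6, 65.0 and 93.3 CPM in hyperthyroid wild type. The hyperthyroid libraries were the lower ones, with overlap at replicate 4, and the difference was -0.34 ± 0.13 (adjusted p = 0.073, or 0.0451 with the replicate block). *Thrb*-KO libraries lay at 127, 129.9, 121, 109 and 120.0 CPM and at 116, 112, 136, 111 and 141 CPM, a difference of 0.02 (95% confidence interval -0.22 to 0.26, adjusted p = 1). Hyperthyroid *Thrb*-KO thus lay above hyperthyroid wild type without overlap, by 0.58 ± 0.12 (adjusted p = 0.00264), just under the 1.5-fold limit, and 0.41 and 0.72 within the library sets. *Srebf1*, on chromosome 11 of mm9 (60012591 to 60036083, minus strand), had pituitary peaks 8918 bp upstream, with 13 reads against 1, and 6241 bp past its end, with 11 against 0, and no cortex or ATAC peak. *Scap*, the escort of both factors, ranged from 87.0 to 105 CPM (median 98.5) and from 65.8 to 107 CPM (median 98.0) in wild type, and from 100.3 to 104 CPM (median 103) and 94.4 to 114 CPM (median 105) in *Thrb*-KO. The lowest value was hyperthyroid wild-type replicate 3, and no contrast passed for it. *Insig1* and *Insig2*, the retention genes, had T3 differences of 0.09 and -0.12 in wild type and of 0.12 and -0.08 in *Thrb*-KO, none past the adjusted p.

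Among the genes that supply acetyl-CoA and malonyl-CoA, *Acacb* responded to T3 and its cytosolic counterpart *Acaca* did not pass. *Acacb* lay at 39.4, 41.3, 29.3 and 32.3 CPM in hypothyroid and 91.1, 72.2, 38.2 and 59.4 CPM in hyperthyroid wild type. Only hyperthyroid replicate 3 lay among the hypothyroid values. The difference was 0.80 ± 0.20 (1.74-fold on this scale, adjusted p = 0.00743), and 0.99 and 0.61 within the library sets. Fitted on the wild-type groups alone, the adjusted p was 0.0698. *Thrb*-KO stayed lower, at 22.9, 23.3, 19.5, 18.3 and 19.7 CPM and at 29.9, 21.9, 19.9, 17.9 and 21.1 CPM, which overlap each other, with a T3 difference of 0.08 (95% confidence interval -0.31 to 0.46, adjusted p = 1). The gap between these responses, 0.72 ± 0.27, had an adjusted p of 0.159, and 0.0112 with the replicate block. *Acacb* was lower in *Thrb*-KO without overlap under both treatments, by -0.74 ± 0.19 in hypothyroid mice (adjusted p = 0.0222) and by -1.47 ± 0.19 in hyperthyroid mice (adjusted p = 3.45e-05). Within the library sets these differences were -0.78 and -0.66, and -1.63 and -1.24. The hypothyroid difference no longer passed without hypothyroid wild-type replicate 1 or 2, or hypothyroid *Thrb*-KO replicate 3 or 4 (adjusted p up to 0.0717).

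In mm9, *Acacb* is on chromosome 5 (114596544 to 114700770, plus strand). A pituitary TRβ-HAB peak at 114595951 to 114596350 ended 194 bp before the gene, with 22 reads of HAB;BirA and 0 of the control, the nearest peak to a start among the 4 genes called with T3. It had no counterpart in the cortex list, which held a peak over a coding exon at 114625601 to 114626200 with 11 reads against 1. Its central 300 bases are shown for this position, with the 1 exact half-site, read as TGACCT on this strand, in capitals (mm9 chr5:114596001-114596300, plus strand, 5′ to 3′).
Acacb: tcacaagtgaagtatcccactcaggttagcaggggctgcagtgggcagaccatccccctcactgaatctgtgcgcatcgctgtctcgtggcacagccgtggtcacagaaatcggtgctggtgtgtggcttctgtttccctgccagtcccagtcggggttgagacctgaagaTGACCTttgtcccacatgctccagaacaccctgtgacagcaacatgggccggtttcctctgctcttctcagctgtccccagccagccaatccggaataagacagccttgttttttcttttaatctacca
No direct repeat with a 4 base spacer at up to 2 mismatches was found in it, which says only that these letters are not in this window. Further pituitary peaks 18144 and 14644 bp upstream lay nearer to the starts of *Alkbh2* and *Ung*.

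*Acaca* ranged from 11.8 to 15.4 CPM (median 14.0) and from 11.2 to 16.2 CPM (median 13.8) in wild type, and from 13.9 to 17.6 CPM (median 15.2) and 13.8 to 16.0 CPM (median 14.6) in *Thrb*-KO, with all groups overlapping. Its T3 difference was -0.02 in wild type and -0.06 in *Thrb*-KO. *Acss2*, which makes acetyl-CoA from acetate, ranged from 21.9 to 24.5 CPM (median 23.1) and from 19.0 to 26.1 CPM (median 22.0) in wild type, and from 24.4 to 26.2 CPM (median 25.6) and 22.8 to 30.0 CPM (median 26.5) in *Thrb*-KO. It did not pass in any contrast, although one of the deeper peaks near these genes, with 51 reads against 5 in pituitary and 30 against 4 in cortex, lay 2834 bp upstream of it. *Acly*, the citrate lyase, had T3 differences of -0.03 and -0.06. *Fasn*, which builds palmitate, lay at 214, 203, 199 and 188 CPM and at 250.0, 239, 151 and 219 CPM in wild type, with hyperthyroid replicate 3 the lowest of all libraries. In *Thrb*-KO it lay at 241, 240.0, 249, 229 and 234 CPM and at 249, 233, 249, 223 and 233 CPM. The T3 difference was 0.07 (95% confidence interval -0.17 to 0.31) in wild type and -0.01 in *Thrb*-KO. Hypothyroid *Thrb*-KO lay above hypothyroid wild type without overlap, by 0.25 ± 0.11, which did not pass (adjusted p = 0.233).

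*Fasn* had 4 pituitary peaks. The gene is on chromosome 11 of mm9 (120667254 to 120685492, minus strand). The deepest peak, at 120661351 to 120662000, with 45 reads against 12, lay 5254 bp past the end of the gene, with the start of *Dus1l* nearer. It overlapped a T3-regulated ATAC peak at 120661454 to 120661815 and a cortex peak with 39 reads against 8. A smaller one in an intron, at 120684401 to 120684500, had 12 reads against 1. Across its edge lies one of the closest matches to the repeat near these genes, on the minus strand from 120684389 to 120684404.
Fasn: GGGTCAggccAGGTCA
It is shown beside the repeat of *Pmvk*, on the minus strand of chromosome 3 from 89291469 to 89291484, in a pituitary peak with 41 reads against 2 that lay 18366 bp past the gene.
Pmvk: AGGTCAagtcAGGACA
Both match at 11 of 12 bases, as the repeat upstream of *Srebf2* does. Neither *Fasn* nor *Pmvk* passed the adjusted p with T3.

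**Figure D2:**
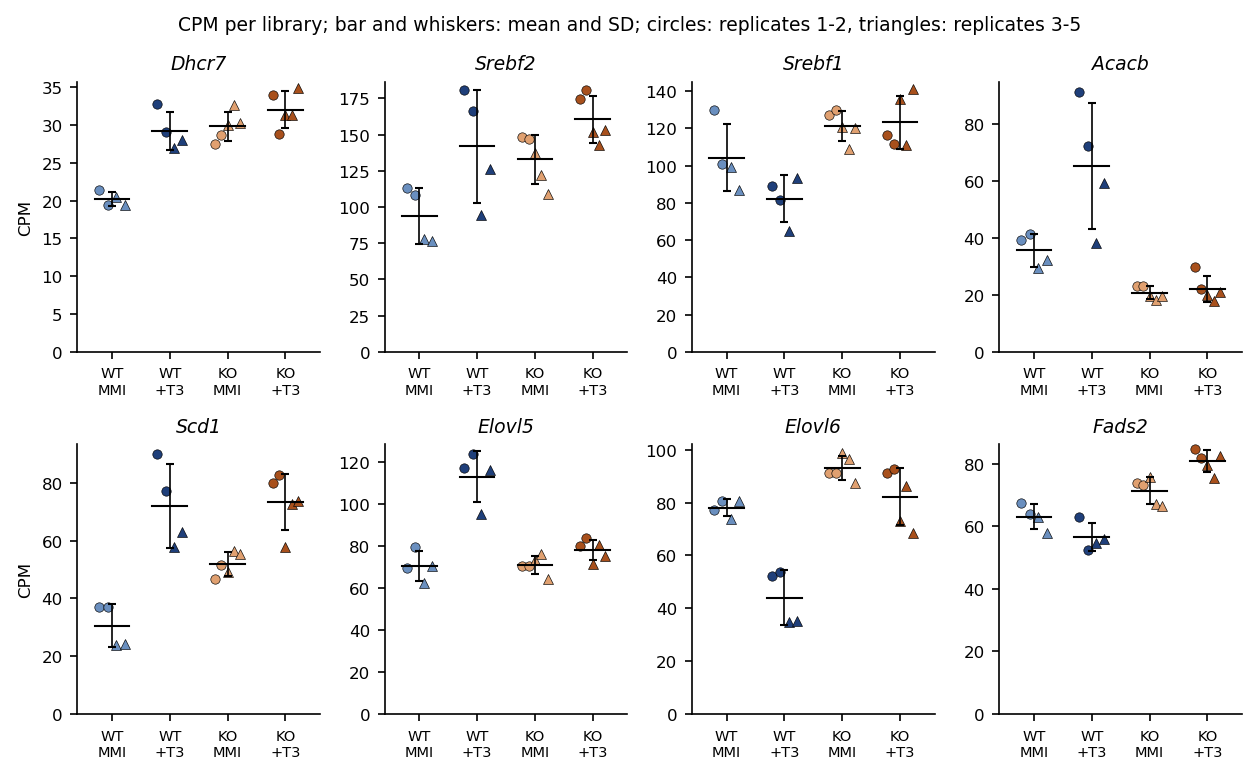
CPM in each library (y axis, linear from 0) for 8 genes in hypothyroid (MMI) and hyperthyroid (+T3) wild type and *Thrb*-KO (x axis), with mean and SD. Circles are replicates 1 and 2 and triangles replicates 3 to 5. For *Scd1* the hyperthyroid wild-type libraries sit at 57.7 to 90.1 CPM, above the hypothyroid ones at 24.0 to 37.1 CPM, and for *Acacb* all *Thrb*-KO libraries sit at 17.9 to 29.9 CPM.

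Of the 6 desaturases and elongases tested, 2 were called higher and 1 lower with T3 in wild type. Among all genes tested, 3.87% were called higher and 5.59% lower. *Scd1*, the desaturase that places the first double bond in stearate and palmitate, lay at 37.0, 37.1, 24.0 and 24.3 CPM in hypothyroid and 90.1, 77.2, 57.7 and 63.1 CPM in hyperthyroid wild type. All hyperthyroid libraries were above all hypothyroid ones, and within each treatment replicates 1 and 2 were the higher. The difference was 1.22 ± 0.16 (2.33-fold, adjusted p = 1.64e-05), and 1.15 and 1.29 within the library sets. The *Thrb*-KO libraries gave 46.8, 51.7, 49.0, 56.6 and 55.5 CPM and 80.1, 82.7, 57.9, 72.7 and 73.7 CPM, again without overlap, with a difference of 0.48 ± 0.14 (adjusted p = 0.122, or 0.0124 with the replicate block). Within the library sets it was 0.71 and 0.33. The responses differed by 0.73 ± 0.21 (adjusted p = 0.0541, or 0.00599 with the replicate block). The gap between genotypes lay in the hypothyroid mice, where *Thrb*-KO exceeded wild type by 0.77 ± 0.15 (adjusted p = 0.00331), and by 0.40 and 1.12 within the library sets. In hyperthyroid mice it was 0.04 (95% confidence interval -0.29 to 0.36, adjusted p = 0.904). The *Scd1* transcript shares 4.66% of its 50-base stretches with other Scd genes.

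In mm9, *Scd1* is on chromosome 19 (44468941 to 44482199, minus strand). Its pituitary TRβ-HAB peaks lay past the end of the gene, at 44463001 to 44463550 with 81 reads of HAB;BirA and 4 of the control (5391 bp away, the authors' fold 16.9), at 44468401 to 44468750 with 25 against 1 (191 bp away) and at 44457401 to 44457650 with 14 against 0. Over all pituitary peaks the medians were 18 reads and 2. The deepest overlapped a cortex peak with 27 reads against 6. Its central 300 bases are shown for the gene with the largest T3 response here, and hold neither the exact half-site nor the repeat (mm9 chr19:44463126-44463425, plus strand, 5′ to 3′).
Scd1: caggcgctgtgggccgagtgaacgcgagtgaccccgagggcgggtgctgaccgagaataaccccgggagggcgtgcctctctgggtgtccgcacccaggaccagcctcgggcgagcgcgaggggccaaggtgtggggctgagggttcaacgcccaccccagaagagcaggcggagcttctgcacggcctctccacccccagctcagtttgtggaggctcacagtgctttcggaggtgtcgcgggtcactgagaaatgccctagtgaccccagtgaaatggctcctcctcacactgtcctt
No T3-regulated ATAC peak lay within 20 kb of *Scd1*.

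*Scd2*, its neighbour on chromosome 19, lay at 476, 452, 353 and 409 CPM and at 417, 392, 311 and 362 CPM in wild type, with overlap. Its T3 difference was -0.19 ± 0.12 (adjusted p = 0.318, or 0.0387 with the replicate block). In *Thrb*-KO it ranged from 401 to 504 CPM (median 415) and from 397 to 486 CPM (median 419.7), with a T3 difference of 0.01. *Scd2* had pituitary peaks 9216 and 366 bp upstream and one 7447 bp past its end.

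*Elovl5* lay at 69.8, 79.7, 62.6 and 70.6 CPM in hypothyroid and 117, 124, 95.6 and 116 CPM in hyperthyroid wild type, without overlap. The difference was 0.67 ± 0.09 (1.59-fold, adjusted p = 2.5e-05), and 0.69 and 0.66 within the library sets. The *Thrb*-KO libraries, at 70.5, 70.5, 73.5, 76.2 and 64.6 CPM and at 80.3, 83.7, 71.6, 80.8 and 75.4 CPM, overlapped, and differed by 0.14 (95% confidence interval -0.04 to 0.32, adjusted p = 0.841). The difference of the 2 responses, 0.53 ± 0.12 (adjusted p = 0.0132), passed in all 18 fits that each left out 1 library. In hypothyroid mice the genotypes differed by 0.01 (95% confidence interval -0.18 to 0.20), and in hyperthyroid mice *Thrb*-KO was lower by -0.52 ± 0.09 (adjusted p = 0.000428) without overlap.

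In mm9, *Elovl5* is on chromosome 9 (77765171 to 77832326, plus strand). The pituitary peak at 77758301 to 77758800, 6371 bp upstream, had 94 reads of HAB;BirA and 2 of the control, the most reads of the 31 pituitary peaks near these genes, and overlapped a cortex peak with 48 against 11. A T3-regulated ATAC peak at 77764901 to 77765407 covered the start of the gene and overlapped no TRβ-HAB peak. The central 300 bases of the upstream peak are shown for this read count. They hold neither the exact half-site nor the repeat, and 77.0% of them are G or C (mm9 chr9:77758401-77758700, plus strand, 5′ to 3′).
Elovl5: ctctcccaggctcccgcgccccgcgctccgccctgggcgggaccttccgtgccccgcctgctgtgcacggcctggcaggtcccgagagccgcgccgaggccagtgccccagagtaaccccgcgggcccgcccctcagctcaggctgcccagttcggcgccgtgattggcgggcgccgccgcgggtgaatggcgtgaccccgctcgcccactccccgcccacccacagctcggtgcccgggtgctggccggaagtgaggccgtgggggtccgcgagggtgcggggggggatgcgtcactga
Smaller pituitary peaks lay in an intron, with 18 reads against 2, and over an untranslated exon, with 12 against 1.

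*Elovl6* was the gene that fell. It lay at 77.2, 80.7, 73.8 and 80.7 CPM in hypothyroid and 52.3, 53.6, 34.7 and 35.4 CPM in hyperthyroid wild type, without overlap. The difference was -0.84 ± 0.13 (0.558 of the hypothyroid level on this scale, adjusted p = 0.000116), and -0.57 and -1.12 within the library sets. *Thrb*-KO gave 91.2, 91.2, 98.8, 96.3 and 87.3 CPM and 91.2, 92.6, 73.0, 86.2 and 68.6 CPM, which overlap, with a difference of -0.18 (95% confidence interval -0.43 to 0.07, adjusted p = 0.932). The difference between the responses was -0.66 ± 0.18 (adjusted p = 0.0339), and 8 of the 18 fits that each left out 1 library kept it. It missed, at 0.0571 to 0.0714, without hypothyroid wild-type replicate 1, 2 or 4, hyperthyroid wild-type replicate 4, hypothyroid *Thrb*-KO replicate 1, 2 or 5, or hyperthyroid *Thrb*-KO replicate 1, 2 or 4. Hyperthyroid *Thrb*-KO exceeded hyperthyroid wild type by 0.91 ± 0.12 (adjusted p = 6.23e-05). Near *Elovl6*, on chromosome 3 of mm9 (129235304 to 129341413, plus strand), no pituitary TRβ-HAB peak and no T3-regulated ATAC peak lay within 20 kb, and a cortex peak with 16 reads against 2 lay 2238 bp past its end.

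*Fads1* and *Fads2*, which desaturate polyunsaturated fatty acids, are neighbours on chromosome 19. *Fads1* lay at 146, 135, 145 and 142 CPM and at 186, 158, 137 and 165 CPM in wild type, with overlap at replicate 3. In *Thrb*-KO it lay at 149, 159, 172, 173 and 173 CPM and at 199.7, 191, 196, 201 and 211 CPM, without overlap. Its T3 differences were 0.18 ± 0.08 in wild type (adjusted p = 0.169) and 0.27 ± 0.08 in *Thrb*-KO (adjusted p = 0.0863, or 0.0445 with the replicate block). With edgeR on the recovered reads the adjusted p was 0.0171 in both genotypes, and with DESeq2 0.000734 and 6.92e-05, all under 1.5-fold. The responses differed by -0.09 (95% confidence interval -0.34 to 0.15). *Fads2* had T3 differences of -0.16 and 0.18, neither past the adjusted p, and the difference between them, -0.34 ± 0.10, had an adjusted p of 0.0663, or 0.0171 with the replicate block. Just past the end of *Fads1*, a T3-regulated ATAC peak at 10271603 to 10271876 and a pituitary TRβ-HAB peak at 10271801 to 10272050, with 20 reads against 2, overlapped.

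Across the 31 genes 1 difference between the T3 responses of the genotypes was called, the negative one of *Elovl6*, where 1.78% of all genes had a positive and 2.48% a negative call. By the adjusted p alone there were 2 positive ones, *Dhcr7* and *Elovl5*, and 1 negative one, against 2.17% and 3.29% of all genes. With TMM scaling *Scd1* and *Elovl5* were called and *Elovl6* was under 1.5-fold, and the share of positive calls over all genes went from 41.8% to 56.2%. With the replicate block there were 3 calls, *Acacb*, *Scd1* and *Elovl6*, and 6 genes past the adjusted p, against 10.8% of all genes. These values share the wild-type and *Thrb*-KO groups with the contrasts above.

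**Figure D3:**
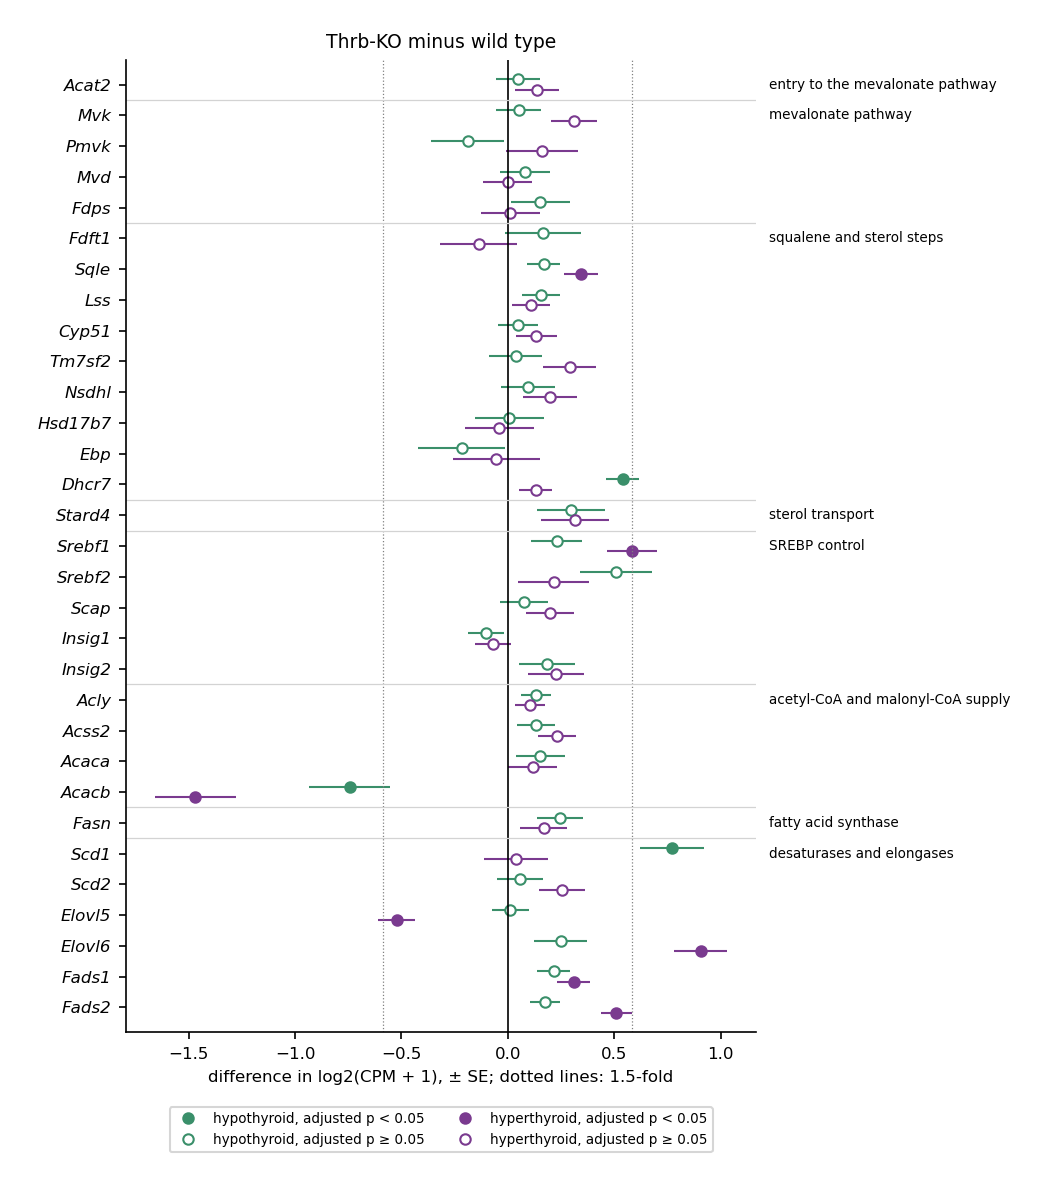
Difference in log2(CPM + 1) between *Thrb*-KO and wild type (x axis, ± SE) for the 31 tested genes (y axis, grouped by role) in hypothyroid (green, n = 5 and 4) and hyperthyroid (purple, n = 5 and 4) mice. Filled points have an adjusted p under 0.05 and dotted lines mark 1.5-fold. Most points lie right of 0, 27 in hypothyroid and 24 in hyperthyroid mice, where 55.6% and 63.2% of all genes did. *Acacb* stands far to the left in both.

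The comparison of genotypes within a treatment uses the same 4 groups again. In hypothyroid mice *Scd1* was called higher and *Acacb* lower in *Thrb*-KO, 1 gene each, where 1.01% and 2.01% of all genes were called. *Dhcr7* passed the adjusted p at under 1.5-fold, to give 2 higher and 1 lower, against 2.73% and 4.12% of all genes. Libraries did not overlap for *Scd1*, *Dhcr7*, *Elovl6*, *Fads1* and *Fasn* (5 higher, 7.6% of all genes) and *Acacb* (1 lower, 6.7%). The median difference was 0.13 against 0.03 for all genes, and 27 of the 31 genes were above 0, or 25 with TMM scaling, where 55.6% and 52.2% of all genes were. With the replicate block *Srebf2* and *Stard4* also passed the adjusted p. In hyperthyroid mice *Elovl6* was called higher and *Acacb* lower, 1 gene each, where 2.54% and 2.32% of all genes were called. By the adjusted p alone there were 5 higher and 2 lower, against 7.77% and 4.3% of all genes, the others being *Srebf1*, *Sqle*, *Fads1* and *Fads2*, all higher, and *Elovl5*, which was lower. The libraries of these 7 genes did not overlap between genotypes, as those of 7.61% of all genes on the higher and 3.69% on the lower side did not. The median difference was 0.16 against 0.07 for all genes, and 0.07 against -0.02 with TMM scaling. Above 0 were 24 of the 31 genes, or 22 with TMM scaling, where 63.2% and 45.6% of all genes were. The share of higher calls over all genes in this contrast was 52.3%, and 38.1% with TMM scaling. With TMM, *Elovl6* was called higher, and *Acacb* and *Elovl5* were the 2 genes called lower at 1.5-fold. With the replicate block *Mvk*, *Scd2* and *Stard4* also passed the adjusted p, and the share of all genes past it went from 12.1% to 19.3%. The immune markers moved with genotype too: of the 3 tested of 4 markers, 1 was called lower in hypothyroid *Thrb*-KO and 2 passed the adjusted p there. *Csf1r*, a macrophage receptor, was at 38.5 to 44.8 CPM in hypothyroid wild type and 22.1 to 25.6 CPM in hypothyroid *Thrb*-KO, and their sum was 50.9 to 55.7 CPM against 29.7 to 35.7 CPM, with 33.7 to 56.7 CPM and 29.4 to 36.4 CPM in hyperthyroid mice. The part of these cells in the differences was not tested.

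*Sqle* and *Fads2* are named here after their values were seen. *Sqle* lay at 29.6, 29.1, 24.3 and 31.2 CPM in hyperthyroid wild type and 33.7, 36.5, 34.0, 38.3 and 39.3 CPM in hyperthyroid *Thrb*-KO, without overlap, a difference of 0.34 ± 0.08 (adjusted p = 0.0066). *Fads2* lay at 62.9, 52.5, 54.7 and 56.0 CPM against 84.6, 81.8, 79.5, 75.4 and 82.6 CPM, a difference of 0.51 ± 0.07 (adjusted p = 8.34e-05). *Fads1* was higher in *Thrb*-KO there by 0.31 ± 0.08 (adjusted p = 0.0141). All of these, like *Srebf1*, were under 1.5-fold. Within the library sets the differences were 0.25 and 0.42 for *Sqle*, 0.53 and 0.51 for *Fads2*, and 0.18 and 0.42 for *Fads1*.

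**Figure D4:**
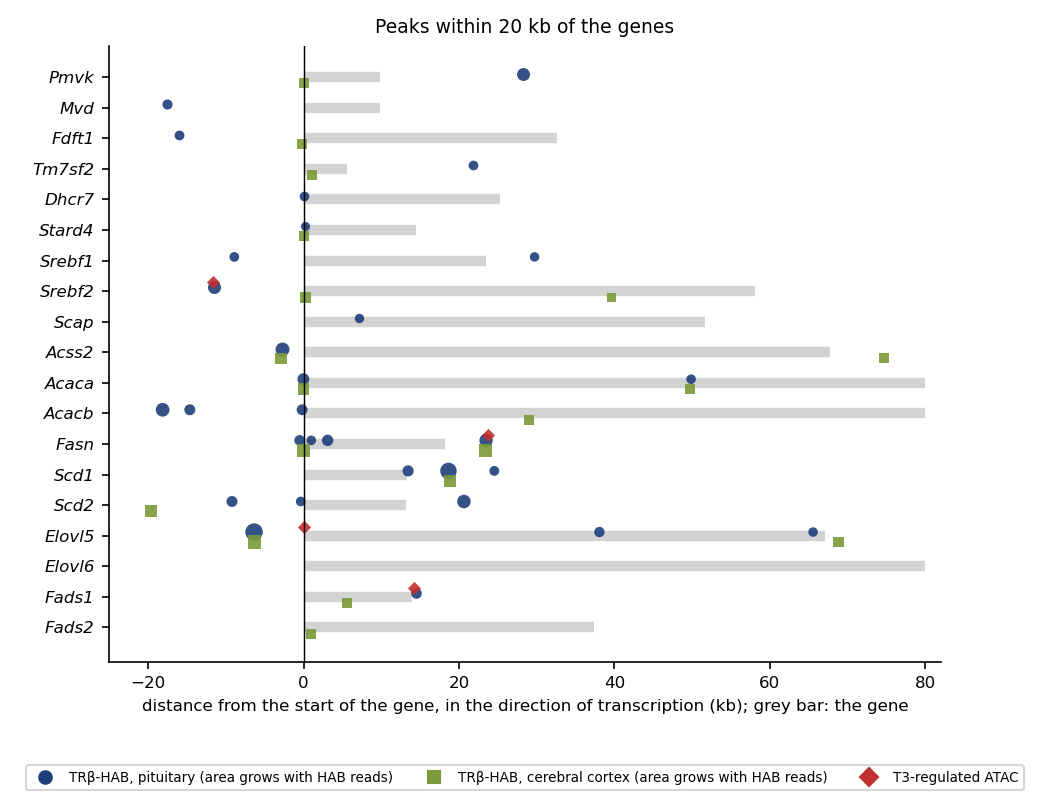
Peaks within 20 kb of the genes that have one (y axis), by the distance of the nearest edge from the start of the gene in kb (x axis, positive in the direction of transcription), for pituitary TRβ-HAB (circles), cortex TRβ-HAB (squares) and T3-regulated ATAC peaks (diamonds), with area growing with HAB;BirA reads. The axis leaves out a peak of *Acaca* at 241777 bp and one of *Elovl6* at 108347 bp, and longer genes are cut at the edge. *Elovl5* and *Scd1* carry the largest circles, with 94 and 81 reads, and diamonds appear at *Srebf2*, *Fasn*, *Elovl5* and *Fads1*.

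TRβ-HAB peaks lay near many of these genes, as they did near many others. In untreated pituitary 17 of the 32 genes had a peak within 20 kb, where 41.3% of the 12898 tested genes with coordinates had one, and in cerebral cortex 15 had one, where 34.9% had. T3-regulated ATAC peaks lay near 4, *Srebf2*, *Fasn*, *Elovl5* and *Fads1*, where 7.79% of genes had one. Some of the peaks counted lay at the start of another gene. Those of *Mvd*, *Fdft1* and *Tm7sf2* in pituitary were 483 bp from *Snai3*, 422 bp from *Neil2* and 50 bp from *Syvn1*. The ChAP-seq mice were untreated, whereas the RNA came from mice on MMI with or without T3. Of the 4 genes called with T3 in wild type, *Scd1*, *Elovl5* and *Acacb*, which rose, had pituitary peaks, and *Elovl6*, which fell, had none. *Acss2* and *Fasn*, which were not called, had peaks with 51 and 45 reads, above the 22 reads at the start of *Acacb*. The ATAC peaks of *Srebf2*, *Fasn* and *Fads1* overlapped a pituitary TRβ-HAB peak, and the one at the start of *Elovl5* did not.

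A window of 300 bases centred on each peak was searched on both strands for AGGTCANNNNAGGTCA with at most 2 mismatches over 12 bases. Where a peak is narrower than 300 bases, its window reaches past the edges of the peak. The repeat was found in the windows of 6 of the 31 pituitary peaks near these genes (19.4%), and of 20.1% of all 8051 pituitary peaks. The 6 lay near *Srebf2*, *Fasn*, *Pmvk*, *Acaca*, *Scap* and *Tm7sf2*, none of them called with T3 in the main fit. The repeats at *Fasn* and *Tm7sf2* cross the edge of the peak. The start of another gene was nearer for the peaks of *Tm7sf2* (*Syvn1*, 50 bp), *Acaca* (*Tada2a*, 151 bp) and *Srebf2* (*Ccdc134*, 7573 bp). *Srebf2* passed the adjusted p in wild type, and with TMM scaling it was called. In the cortex the repeat was found in the window of 1 of 20 peaks, where 6.35% of 5164 windows held it. Among the ATAC peaks it was found in 1 of 4 windows, where 30.2% of 1776 held it. The exact half-site AGGTCA was found in the windows of 9 of the 31 pituitary peaks, and in 33.1% of all pituitary windows. The windows near these genes thus held the repeat and the half-site about as often as those of other pituitary peaks.

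**Figure D5:**
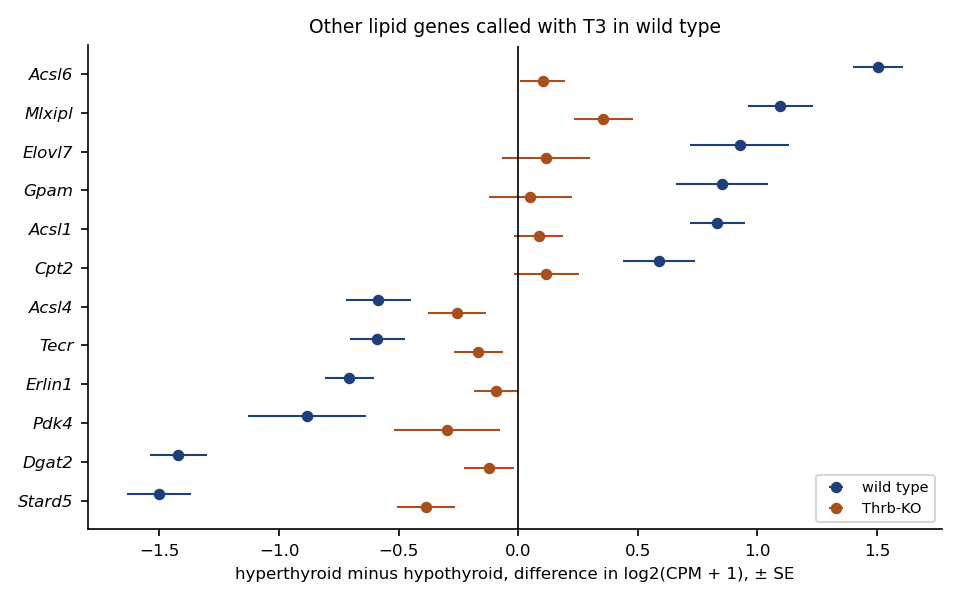
Difference in log2(CPM + 1) between hyperthyroid and hypothyroid pituitaries (x axis, ± SE) in wild type (blue) and *Thrb*-KO (brown) for the genes of other lipid lists (y axis) called in wild type (adjusted p under 0.05 and at least 1.5-fold). *Acsl6* stands at the top with 1.50 and *Stard5* at the bottom with -1.50 in wild type, and none of these genes passes in *Thrb*-KO.

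Other genes of lipid metabolism were read in the same fit, from lists written with earlier results of these data known. Of 9 further genes of sterol synthesis tested, none passed the adjusted p with T3 in wild type. Among all genes tested, 6.89% passed it as higher and 12.4% as lower, so a count of 0 among 9 says little. Of 16 genes of sterol sensing, uptake and storage none was called higher and 2 were called lower, where 3.87% of all genes tested were higher and 5.59% lower. They are *Stard5*, a sterol carrier, from 64.2 ± 13.1 to 21.8 ± 2.24 CPM (log2 difference -1.50), and *Erlin1*, from 39.1 ± 5.01 to 23.5 ± 1.30 CPM (-0.71). Of 9 genes of LXR, a sterol-sensing nuclear receptor, and its targets, 1 was called higher (3.87% of all genes), *Mlxipl*, the carbohydrate-responsive activator of lipogenic genes, from 5.25 ± 0.708 to 12.4 ± 1.94 CPM (1.09, adjusted p = 9.08e-06).

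Of 29 genes of fatty acid activation and triglyceride synthesis tested, 4 were called higher and 3 lower in wild type, where 3.87% and 5.59% of all genes were. *Acsl6*, which activates long fatty acids, went from 18.9 ± 2.34 to 55.7 ± 8.14 CPM (1.50, adjusted p = 6.91e-09), and *Acsl1*, of the same family, from 26.2 ± 4.73 to 47.2 ± 7.37 CPM (0.83). *Elovl7* (0.93) and *Gpam* (0.85), the first step of glycerolipid synthesis, were the others. *Dgat2*, which makes triglycerides, went from 33.4 ± 3.08 to 11.8 ± 1.41 CPM (-1.42, adjusted p = 6.66e-08), and *Tecr* (-0.59), a reductase of chain elongation, and *Acsl4* (-0.59) were also lower. Of 15 genes of fatty acid breakdown 1 was called higher, *Cpt2* (0.59), which returns fatty acids to CoA inside mitochondria, and 1 lower, *Pdk4* (-0.88), which spares glucose, and these counts are near the shares of all genes (3.87% and 5.59%). All SDs here are over n = 4. In *Thrb*-KO none of the genes on these lists was called, where 0.411% of all genes were higher and 0.601% lower. *Elovl4* (-0.30, adjusted p = 0.0405) passed the adjusted p there. Calls for the difference of responses were made for *Acsl6* (1.40), *Acsl1* (0.75), *Mlxipl* (0.74), *Dgat2* (-1.30), *Stard5* (-1.12) and *Erlin1* (-0.61). Among all genes, 1.78% had a positive and 2.48% a negative call of this kind.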

How the data were processed

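The authors deposited a table of CPM for each RefSeq transcript (mm9), made by the methods with BBMap from single-end reads of 50 bases. The submitters' processing notes list STAR and not BBMap. Libraries were made with 2 kits, and which library had which is not given in the sources used here. Peaks were called by the authors with SICER 1.1 on merged libraries, and the deposited lists give counts of reads for HAB;BirA and control, a false discovery rate (q-value) and a fold. The deposited ATAC list gives an adjusted p-value without direction. The untreated BirA control libraries carry a HAB genotype in 1 label, against their titles.

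The 18 CPM columns were whole multiples of 1 read (100% of values, tolerance 0.1 reads). One transcript per gene (highest mean CPM) was tested with limma 3.58.1 (lmFit, eBayes with trend) on log2(CPM + 1), all 4 groups fitted together, with Benjamini-Hochberg adjustment over 13145 genes, in R 4.3.3. edgeR 4.0.16 and DESeq2 1.42.0 on the recovered reads, other filters, pseudocounts, scalings, library sets, each library left out and other peak windows were the alternatives. Intervals are 95% intervals built with the residual degrees of freedom of the fit. The limma p-values use more degrees of freedom, so the intervals are slightly wide beside them. p-values measure the spread between pools of mice. Deviations of libraries with the same replicate number had correlations of 0.255 to 0.815 in all 17 pairs. The own number was the best match in 8 of the 17, and libraries of the same number also share a library set. A pairing by number is thus not established, and values with the replicate block are given as an alternative only. The numbers are those of the labels. Genes were placed with GENCODE on mm9, and sequences were read from its genome. Fits were tested on simulated data. Results of 1 gene of the other lists are not reported here.

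The genes and lists were chosen with earlier results of these data known. Named with values are genes called in any contrast, genes past the adjusted p with T3 in wild type, and genes with a pituitary TRβ-HAB or ATAC peak. The repeat search, its mismatches and window, and the checks of shared stretches and overlapping exons were chosen after seeing the data.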

Additional observations from a re-analysis of the deposited data

Results flagged for a closer look

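The T3 response differed between wild type and *Thrb*-KO by the test of the difference itself for 3 of the 31 genes. For *Elovl5* the response in wild type exceeded that in *Thrb*-KO by 0.53 on the log2 scale. For *Dhcr7* it exceeded it by 0.41, and for *Elovl6* the difference was -0.66. In *Thrb*-KO the T3 responses of these genes were 0.14, 0.10 and -0.18, and none passed the adjusted p. Among 128 groups of values of single genes, 0 held a library far from the others by Dixon's test at the level of chance of about 1 in 20 groups.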

How the results depend on the processing

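With T3 in wild type the number of genes called was 4, and 4 to 5 when each library was left out in turn. The share of all genes called was 9.46%, and 8.95% to 10.2% without 1 library. The number was 6 with TMM scaling, with edgeR and with DESeq2 (9.23%, 10.6% and 10.9% of all genes). With only the wild-type groups fitted it was 3 (7.9% of all genes). In *Thrb*-KO the number called was 0, 0 to 0 without 1 library, and 1 in replicates 1 and 2 alone. There 1.01% of all genes were called, and 1.51% in replicates 1 and 2 alone. The differences between the responses changed most: 1 was called, 3 with no fold limit, 2 with CPM above 1 in at least 4 libraries, 2 with TMM scaling, 2 with edgeR, 4 with DESeq2, 3 with the library set as a term, 3 with the replicate block, 2 in replicates 3 to 5 alone, and 0 to 3 when each library was left out. It was 3 without hyperthyroid wild-type replicate 3 and 2 without hypothyroid wild-type replicate 2. It was 0 without hypothyroid wild-type replicate 4, hyperthyroid wild-type replicate 4, hypothyroid *Thrb*-KO replicate 1, 2 or 5, or hyperthyroid *Thrb*-KO replicate 1, 2 or 4. The share of all genes with such a difference called was 4.26%, and 3.67% to 5.33% without 1 library. That share was 5.46% with no fold limit, 5.57% with DESeq2, 5.85% with the library set as a term and 5.73% with the replicate block. Between genotypes in hypothyroid mice 2 genes were called, 1 in replicates 1 and 2 alone, 4 in replicates 3 to 5 alone, and 1 to 2 without 1 library. The shares of all genes were 3.02%, 3.04% in replicates 1 and 2 alone and 4.78% in replicates 3 to 5 alone. In hyperthyroid mice 2 genes were called, 7 with no fold limit and 2 to 3 without 1 library. There 4.86% of all genes were called, 12.1% with no fold limit and 4.67% to 5.36% without 1 library. For these, the cause was not tested. The replicate block changed no call other than those given beside the results. In 8 of the 17 pairs of libraries with the same number, the correlation was higher than with any other number. Genes near a pituitary peak numbered 17, and 11 at 5 kb (30.3% of all genes). Near a cortex peak they numbered 15, 25 at 100 kb (62.9%) and 8 at a false discovery rate under 1e-10 (16.9%). Near an ATAC peak they numbered 4, 2 at 5 kb (5.63%) and 0 at an adjusted p under 1e-10 (0.651%). For the other counts 140 alternatives stayed within 1.5 times. For single genes 549 alternatives kept direction and threshold, 37 kept only the direction, and 0 reversed. Without counts per library in the peak lists, no error can be given for single peaks.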
